A study of Saccharomyces cerevisiae with 14 samples.

Results

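Growth in rich and in minimal medium was compared at 1 h on 6 of the 14 arrays of the series. The 6 are defined by their labels: Saccharomyces cerevisiae strain FF18984, sampled 1 h after treatment, in YPD (3 arrays) and in F1 (3 arrays). The series measured gene expression after low levels of methyl methanesulfonate (MMS), a DNA-alkylating agent, by hybridising 33P-labelled cDNA of total RNA to membranes carrying the yeast genes. The YPD arrays are mock-treated, 0.00125% MMS and 0.0125% MMS, and the F1 arrays carry the same doses. The submitters call YPD the full and F1 the minimal medium, and the composition of F1 and the genotype of FF18984 are not given in the sources used here. Cells grew at 30°C to mid log phase before the culture of a medium was divided between the mock and MMS aliquots. Each condition has 1 array, and the arrays of a medium were hybridised in turn to 1 membrane that was stripped in between. Medium, culture and membrane therefore cannot be told apart. The p-values of the 1 h comparison measure the spread of the 3 differences between media at matched dose, drawn toward the spread over all genes. No p-value below, at either time, measures a spread between replicate cultures or membranes.

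Rich medium supplies amino acids, nucleobases and vitamins, which cells in minimal medium must make themselves. In budding yeast the enzymes of amino acid synthesis are largely under general amino acid control, in which the transcription factor Gcn4 activates their genes when amino acids are scarce. Permeases and enzymes for poor nitrogen sources are held down by nitrogen catabolite repression when good sources are present, and the genes of the ribosome are transcribed in step with growth rate.

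Before any comparison, the arrays of 1 h stood apart from the other arrays of the series. Across genes, the Spearman correlation was 0.637 to 0.882 among the 6 arrays of 1 h, but 0.247 to 0.369 with the FF18984 arrays of 30 min and 0.275 to 0.347 with the arrays of strain BY4742, also taken at 1 h. The arrays of 30 min and of BY4742 correlated with each other at 0.661 to 0.844. The files give the same gene for every position on all 14 arrays, but a membrane of another layout would not show in them. On 17 of the 18 printing plates, the 1 h levels correlated with the same plate of the 30 min arrays more than with any other plate (0.190 to 0.452 for the same plate), and plate 15a was the exception (0.114, against 0.131 with another plate). The ribosomal protein genes, which are abundantly expressed, had a median percentile among all genes of 92.7 to 97.9 on each of the 18 plates at 1 h. Why the sets correlate weakly was not tested. Within the 1 h set, correlations were 0.722 to 0.882 among the YPD arrays, 0.812 to 0.874 among the F1 arrays and 0.637 to 0.825 between the media. The share of genes at or below local background was 11.2%, 23.1% and 33.4% on the YPD arrays and 2.58%, 16.1% and 31.4% on the F1 arrays (mock, 0.00125%, 0.0125%), so it was higher at the higher doses on both membranes. Of the mating-type markers, 7 of 7 a-specific genes had a signal above background on all 6 arrays, against 0 of 4 alpha-specific genes and 3235 of all 6094 genes. None of these 11 markers differed between media past the threshold, which 8.30% of all genes passed. The labels give no mating type.

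Levels below are log2 intensities after scaling and quantile normalization, on which 0 lies close to the middle of an array, and differences are YPD minus F1. The threshold for passing was 0.05 on limma's p, adjusted by Benjamini and Hochberg over all 6094 genes. Of these, 506 genes passed (8.30%), 234 higher in YPD (3.84%) and 272 lower in YPD (4.46%), while the median difference of all genes was 0.02. The count was 777, 216 and 531 without the mock, 0.00125% and 0.0125% pair in turn and 193 without the dose block. The split depends on the scaling, since centring each array on its median in place of quantile normalization gave 343 higher and 192 lower. All 506 had the same sign in the 3 pairs, and 436 differed by more than 1 log2 unit. Both counts are favoured by the selection, since the test uses those same 3 differences. The media did not overlap for 470 of the 506, and for 704 higher and 713 lower genes among all 6094. A signal above background on all 6 arrays was found for 342 of the 506 and for 3235 of all genes. Array positions with no gene give a second yardstick: the 95th percentile of their signal averaged 0.74 on the YPD arrays and 0.56 on the F1 arrays. Where a gene lay under this limit on all 3 arrays of a medium, its fold is given as a lower bound against the limit, a rule chosen after the data were seen, and its log2 difference is then only a fitted value. For MET13, MET3, PSD2, SPL2, MRPL8, LAP3, RPT5, TIP1, TDA7 and CDC36 the other medium lay too close to the limit for a bound. MRPL16, LYS2 and SSK2 were under it on all 6 arrays. In these bulk samples a change in RNA per cell and a change in the mix of cells cannot be told apart.

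**Figure D1:**
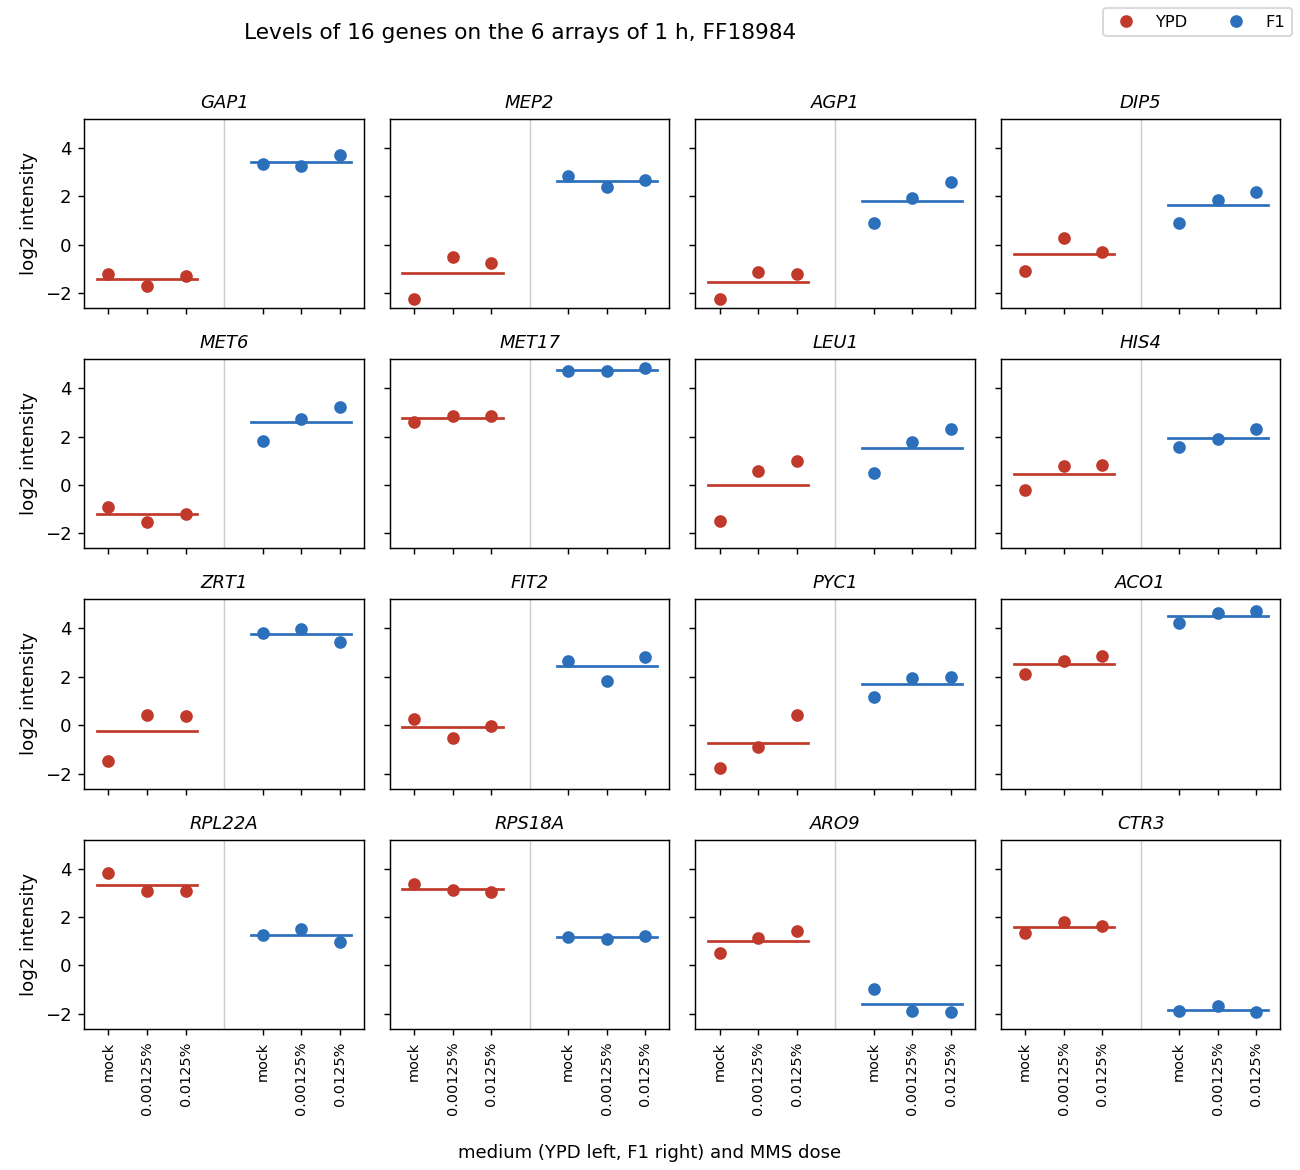
Log2 intensity of 16 genes on the 6 arrays of 1 h; each dot is 1 array (YPD left in red, F1 right in blue, MMS dose rising from left to right) and each line the mean of a medium. The media do not overlap for 15 of the 16 genes, which were picked among genes that passed. For LEU1, YPD at 0.0125% (0.97) exceeds the F1 mock array (0.51). Of the 506 genes that passed, 470 do not overlap. Of all 6094 genes, 704 do not overlap with YPD higher and 713 with YPD lower.

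Genes for the uptake of nitrogen compounds held some of the largest differences, and those that passed were all lower in YPD. GAP1, the general amino acid permease, was at -1.21, -1.68 and -1.31 on the YPD arrays and at 3.33, 3.24 and 3.69 on the F1 arrays (mock, 0.00125%, 0.0125%). Every YPD array was below the limit of the unnamed positions and every F1 array above it. The difference was -4.82 ± 0.26 (SE, 3 pairs; limma adjusted p = 2.59e-05), which is at least 6.42-fold lower in YPD against that limit. MEP2, an ammonium permease, was at -2.26, -0.50 and -0.76 in YPD against 2.85, 2.37 and 2.67 in F1, at least 3.71-fold lower in YPD (adjusted p = 0.00132). AGP1, a permease of broad amino acid specificity, was at or below local background on all 3 YPD arrays and at 0.92, 1.94 and 2.60 on the F1 arrays, at least 2.11-fold lower in YPD (adjusted p = 0.00132). None of these 3 genes overlapped between media.

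DIP5, which carries glutamate and aspartate, was at least 1.88-fold lower in YPD (difference -2.02, adjusted p = 0.00473). GNP1, a high-affinity glutamine permease, was well above the limit on all 6 arrays: 2.69, 2.99 and 3.04 in YPD and 3.87, 4.14 and 4.23 in F1, 2.25-fold lower in YPD (adjusted p = 0.0131). These 5 genes are all that passed among 22 amino acid, peptide and ammonium permeases, with 0 higher in YPD and a list median of -0.44. Of the rest, direction was mixed: 7 of the 22 had a positive difference, among them TAT2 for tryptophan at 1.60, which did not pass, and LYP1 for lysine stood at -0.32. Of 20 genes of nitrogen catabolism and its control, 1 passed, lower in YPD (5.0%, near the 4.46% of all genes). It was GAT1, an activator of nitrogen-repressed genes, at least 1.35-fold lower in YPD (difference -2.09, adjusted p = 0.0121).

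Methionine and cysteine synthesis held several of the largest differences among enzymes. MET6, the methionine synthase that does not use cobalamin, was at -0.89, -1.54 and -1.20 in YPD against 1.81, 2.71 and 3.22 in F1, at least 3.58-fold lower in YPD (difference -3.79 ± 0.37, adjusted p = 0.00125). MET17, which makes homocysteine from O-acetylhomoserine and sulfide, was bright on every array, at 2.60, 2.86 and 2.87 in YPD and 4.69, 4.72 and 4.85 in F1, 3.94-fold lower in YPD (adjusted p = 0.00161). For both genes the gap between media was several times the spread within either.

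MET10, a sulfite reductase subunit, was at least 1.51-fold lower in YPD (difference -2.68, adjusted p = 0.00811), and MET13, a methylenetetrahydrofolate reductase, differed by -2.47 (adjusted p = 0.0202). CYS3, cystathionine gamma-lyase, differed by -1.14 (adjusted p = 0.0198), but its YPD levels of -0.15 to 2.82 overlapped its F1 levels of 1.46 to 3.88, with the highest level at 0.0125% in both media. MET3, the ATP sulfurylase at the entry of sulfate assimilation, went the other way at 1.68 (adjusted p = 0.034), with levels of -0.18, 0.59 and 1.25 in YPD that lay close to the limit, and its sign changed without background correction. In all, 5 of 26 genes of sulfur amino acid synthesis were lower in YPD and 1 was higher, with a median of -0.46. The sulfate permeases SUL1 (0.61) and SUL2 (0.35) did not pass.

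Branched-chain synthesis had 4 of 11 genes lower in YPD, 0 higher and a median of -0.95. They were BAT1, the mitochondrial branched-chain aminotransferase (-1.72, adjusted p = 0.0286), LEU1, isopropylmalate isomerase (-1.52, adjusted p = 0.014), LEU4, an alpha-isopropylmalate synthase (-1.04, adjusted p = 0.0207), and ILV3, dihydroxyacid dehydratase (-0.95, adjusted p = 0.0289). LEU1 was at -1.50, 0.57 and 0.97 in YPD and 0.51, 1.77 and 2.32 in F1: the media overlapped across doses, while each pair differed in the same direction. With 1 array a group, no dose effect is tested here. The call on this list is sensitive to the model, with 0 of 11 passing when dose was not used as a block and 1 of 11 after median centring. The median level of the list was -0.23, 1.52 and 1.41 on the YPD arrays and 1.95, 1.89 and 2.32 on the F1 arrays, so the YPD mock array was low.

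Of 11 genes for glutamate, glutamine, asparagine and proline, 4 were lower in YPD and 0 higher, and all 11 differences were negative (median -0.60). The median difference was -1.25 in the mock pair, -0.20 at 0.00125% and -0.33 at 0.0125%, with median levels of 0.04, 0.79 and 1.27 on the YPD arrays and 1.55, 1.60 and 1.84 on the F1 arrays, so the YPD mock array was low here too. PRO3, the last enzyme of proline synthesis, was at least 2.80-fold lower in YPD (difference -2.66, adjusted p = 0.00132), although its spots differed on YPD: 1 spot was below background on all 3 arrays and its partner above on all 3. GLN1, glutamine synthetase, was at 1.60, 1.79 and 1.76 in YPD against 3.03, 3.26 and 3.23 in F1, 2.74-fold lower in YPD (adjusted p = 0.00381). The glutamate dehydrogenases GDH3 (at least 1.26-fold, difference -2.08, adjusted p = 0.0205) and GDH1 (-1.01, adjusted p = 0.028) were also lower in YPD. GLN1 varied little across the 3 doses of a medium, with an SD of 0.10 in YPD and 0.12 in F1. Each dose is 1 array, so these SDs do not measure a spread between replicates.

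The shares lower in YPD were 22.2% for arginine and 14.3% for histidine, from lists of 9 and 7 genes, against 4.46% of all genes. For arginine, ARG1, argininosuccinate synthetase (-1.31, adjusted p = 0.0207), and ARG4, argininosuccinate lyase (-1.01, adjusted p = 0.0306), were lower in YPD out of 9 measured. For histidine, 1 of 7 passed: HIS4, a multifunctional enzyme of the pathway, at -0.19, 0.78 and 0.82 in YPD against 1.58, 1.90 and 2.31 in F1, at least 2.28-fold lower in YPD (adjusted p = 0.00886). None of 9 lysine and 5 threonine genes passed, with medians of -0.01 and -0.51.

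Against this direction stood a pair of genes. ARO9, an aromatic aminotransferase known for breaking down aromatic amino acids, was at 0.51, 1.12 and 1.42 in YPD against -0.96, -1.88 and -1.93 in F1, at least 1.38-fold higher in YPD (difference 2.61 ± 0.47, adjusted p = 0.0106). It was the only gene of 14 in the aromatic list to pass. GLY1, threonine aldolase, which makes glycine from threonine, was at 2.92, 2.67 and 2.97 in YPD against 1.19, 1.18 and 1.07 in F1, 3.27-fold higher in YPD (adjusted p = 0.00269). Over the 9 amino acid lists together, 16 of 98 genes were lower in YPD and 3 higher, with a median of -0.42. The count of lower genes was 24, 11 and 17 without the mock, 0.00125% and 0.0125% pair in turn, 7 without the dose block, and 7 and 5 from single spots, and the median of the lists together was negative under all 20 alternative settings.

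GCN4 itself was at 3.36, 3.28 and 3.82 in YPD and 4.47, 4.33 and 4.47 in F1, 1.92-fold lower in YPD (adjusted p = 0.0455). Its activity is known to be set mainly at translation, which these arrays do not measure. ARG80, a regulator of arginine genes, was also lower in YPD (at least 1.57-fold, difference -1.47, adjusted p = 0.0329), and with GAT1 these were 3 of 21 regulators that passed.

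Nucleotide synthesis had no common direction. Of 12 pyrimidine genes, URA1, dihydroorotate dehydrogenase, was at 1.83, 2.11 and 1.80 in YPD and 3.20, 4.10 and 3.72 in F1, 3.39-fold lower in YPD (adjusted p = 0.00269), and URA2, the first enzyme of the pathway, was 2.43-fold lower (adjusted p = 0.0141). The median of that list was 0.05. Of 18 purine genes only IMD2, an IMP dehydrogenase, passed (2.56, adjusted p = 0.0183), and its F1 levels were uneven: 1.21 on the mock array, -2.35 and -1.93 on the MMS arrays, against 1.33 to 1.94 in YPD. IMD2 has close relatives in the yeast genome, and cross-hybridisation between them was not tested.

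In one-carbon metabolism, GCV3 (-1.18, adjusted p = 0.0373) and LPD1 (-0.91, adjusted p = 0.0408), both subunits of the glycine cleavage system, were lower in YPD out of 11 genes. Vitamin genes gave no common direction. THI21, a thiamine synthesis enzyme, was lower in YPD (-2.24, adjusted p = 0.00381) and THI7, the thiamine transporter, higher (at least 1.78-fold, difference 1.27, adjusted p = 0.0488) out of 17. RIB4, for riboflavin (-1.56, adjusted p = 0.00627), and BNA6, for NAD (at least 1.45-fold, difference -1.11, adjusted p = 0.0465), were lower in YPD out of 23 further vitamin and cofactor genes, and 0 of 8 vitamin B6 genes passed. Of 18 phospholipid genes, ITR1, an inositol transporter (-1.04, adjusted p = 0.0291), CHO1, phosphatidylserine synthase (-1.08, adjusted p = 0.0395), and PSD2, phosphatidylserine decarboxylase (-1.89, adjusted p = 0.0295), were lower in YPD. Each of these 3 lipid genes lost its call without the 0.00125% pair.

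**Figure D2:**
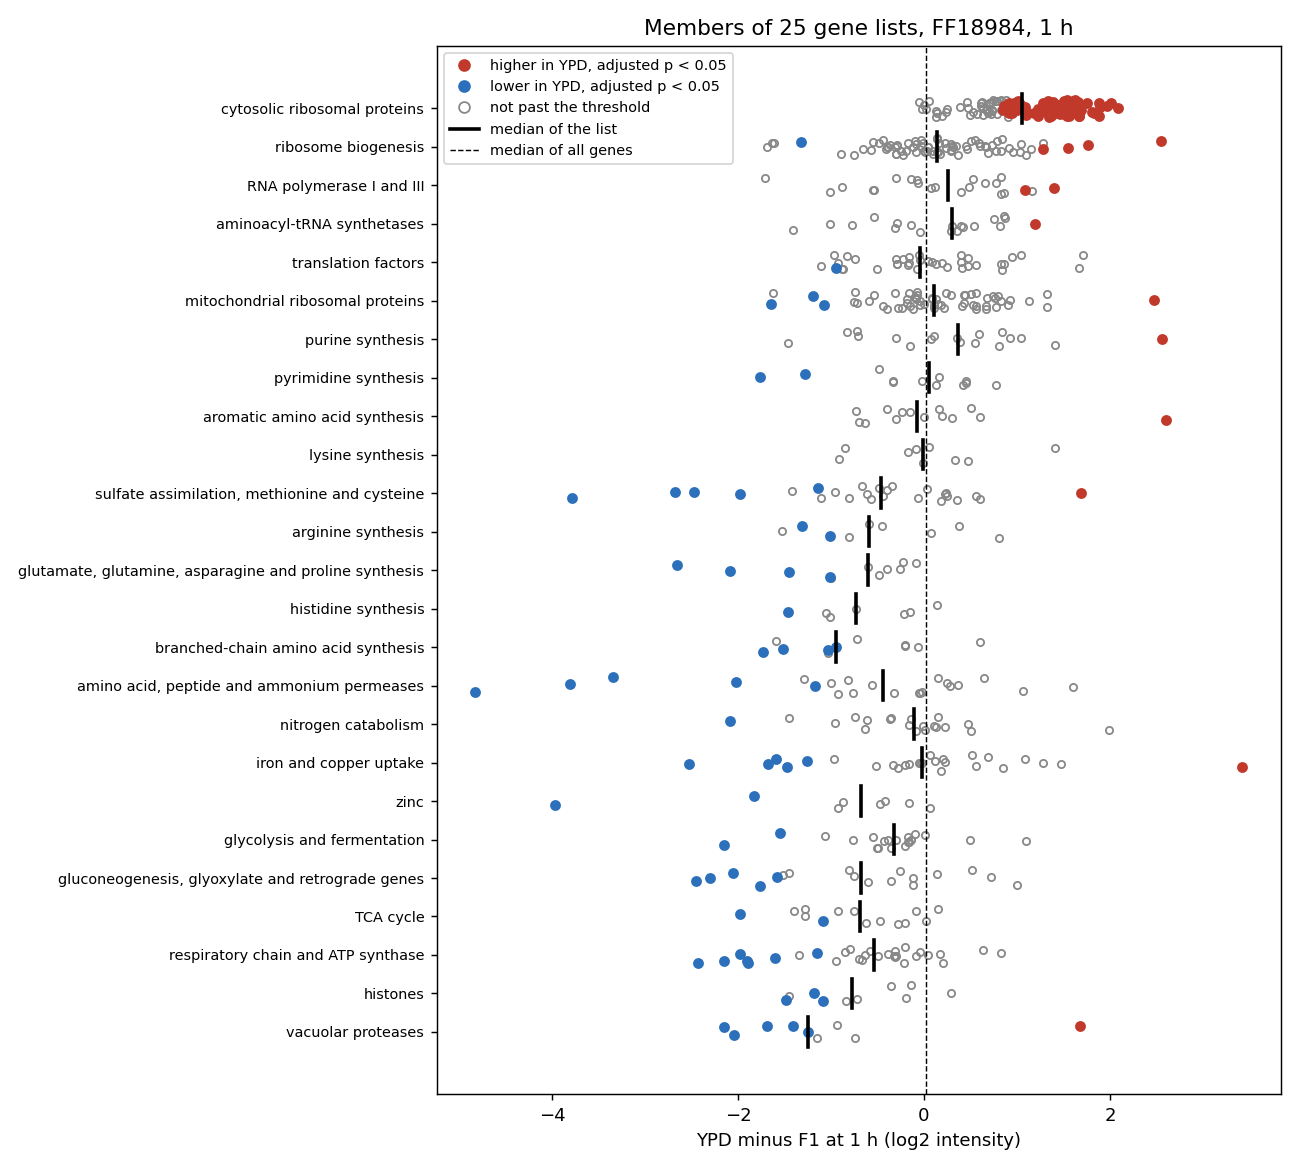
YPD minus F1 at 1 h in log2 intensity for the members of 25 gene lists; each dot is 1 gene, filled red where higher in YPD and blue where lower in YPD past the threshold, black bars are list medians and the dashed line the median of all genes. Cytosolic ribosomal proteins lie to the right of 0 (median 1.06), and most metabolic lists lie to the left or centre near 0 with a few genes far out.

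Metal uptake differed by gene more than by group. ZRT1, the high-affinity zinc transporter of the plasma membrane, was at -1.48, 0.44 and 0.37 in YPD against 3.80, 3.99 and 3.45 in F1, at least 8.06-fold lower in YPD (difference -3.97 ± 0.37, adjusted p = 0.0012). No YPD array exceeded the limit for ZRT1 and all F1 arrays did. ZRT3, which releases zinc from the vacuole, was lower too (-1.83, adjusted p = 0.0103), the other 6 of 8 zinc genes did not pass, and the median was -0.67.

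FIT2, a cell wall mannoprotein that retains iron siderophores, was at 0.27, -0.51 and -0.03 in YPD and 2.67, 1.82 and 2.82 in F1, at least 3.25-fold lower in YPD (adjusted p = 0.00132). FET3, the multicopper oxidase of high-affinity iron uptake, was 3.21-fold lower (adjusted p = 0.00415), and its partner permease FTR1 was lower by -1.26 (adjusted p = 0.0346). With the siderophore transporter ARN2 (at least 1.14-fold, difference -1.60, adjusted p = 0.0295) and the vacuolar oxidase FET5 (-1.48, adjusted p = 0.0418), 5 of 27 iron and copper genes were lower in YPD. CTR3, a copper transporter, was the only one higher in YPD: 1.34, 1.80 and 1.65 in YPD against -1.89, -1.66 and -1.93 in F1, at least 2.06-fold (difference 3.42 ± 0.38, adjusted p = 0.00137). The median of the 27 was -0.02, so the list has no common direction. Of 18 phosphate genes, SPL2 passed (1.67, adjusted p = 0.0483), from levels on YPD of at most 0.75.

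The citric acid cycle and respiratory chain genes that passed were all lower in YPD. ACO1, aconitase of the citric acid cycle, was at 2.12, 2.66 and 2.85 in YPD and 4.23, 4.62 and 4.72 in F1, 3.95-fold lower in YPD (difference -1.98, adjusted p = 0.00137), and with CIT1, citrate synthase (-1.09, adjusted p = 0.034), it made 2 of 14 cycle genes. The median level of the cycle list was -0.03, 0.78 and 0.94 on the YPD arrays and 1.17, 1.07 and 1.19 on the F1 arrays, again with a low YPD mock array. POR1, the channel of the mitochondrial outer membrane, was at 1.27, 2.57 and 2.77 in YPD and 4.60, 4.66 and 4.48 in F1, 5.21-fold lower in YPD (adjusted p = 0.00275). Of 30 respiratory chain and ATP synthase genes, 7 were lower in YPD and 0 higher (median -0.54).

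Those 7 included COX8, a cytochrome c oxidase subunit, 3.04-fold lower in YPD (adjusted p = 0.00287), and the ATP synthase subunits ATP17 (at least 1.54-fold, difference -2.43, adjusted p = 0.00903) and ATP15 (at least 1.12-fold, difference -1.90, adjusted p = 0.0295). ATP17 and ATP15 lay under the limit on all YPD arrays, and the difference of ATP17 was 0.21 without background correction. Only 3 of 30 respiratory genes passed without the 0.00125% pair. MSM1, the mitochondrial methionyl-tRNA synthetase, was at least 1.95-fold lower in YPD (adjusted p = 0.00329).

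PYC1, pyruvate carboxylase, which refills the citric acid cycle, was at -1.76, -0.89 and 0.44 in YPD against 1.16, 1.95 and 2.01 in F1, at least 1.96-fold lower in YPD (adjusted p = 0.00412). Its paralog PYC2 was at least 1.48-fold lower (difference -1.58, adjusted p = 0.0295), and the sequences are similar enough that the probes may share signal. ALD4, mitochondrial aldehyde dehydrogenase (at least 1.11-fold, difference -2.30, adjusted p = 0.0146), DLD3, a cytosolic lactate dehydrogenase (-1.76, adjusted p = 0.00329), and JEN1, a lactate permease (at least 2.02-fold, difference -2.05, adjusted p = 0.0225), completed the 5 of 18 genes lower in YPD in the list of gluconeogenesis, glyoxylate and retrograde genes. PCK1 and FBP1, the defining enzymes of gluconeogenesis, were at -0.12 and -0.35 and did not pass.

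The glycolysis list depended on 1 array. GLK1, glucokinase, and CDC19, pyruvate kinase, were the 2 of 20 genes that passed, both lower in YPD (-2.15, adjusted p = 0.0472, and -1.55, adjusted p = 0.0446). The median level of the list was 3.45, 5.49 and 5.29 on the YPD arrays and 4.83, 5.47 and 5.22 on the F1 arrays, so the YPD mock array was low. The median paired difference was -1.35 in mock, 0.07 at 0.00125% and 0.19 at 0.0125%. The list median of -0.33 was 0.14 without the mock pair, 0.25 after median centring and 0.41 in the centred series table, so glycolysis had no stable direction. Both genes lost their call without the dose block. No hexose transporter of 17 passed.

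**Figure D3:**
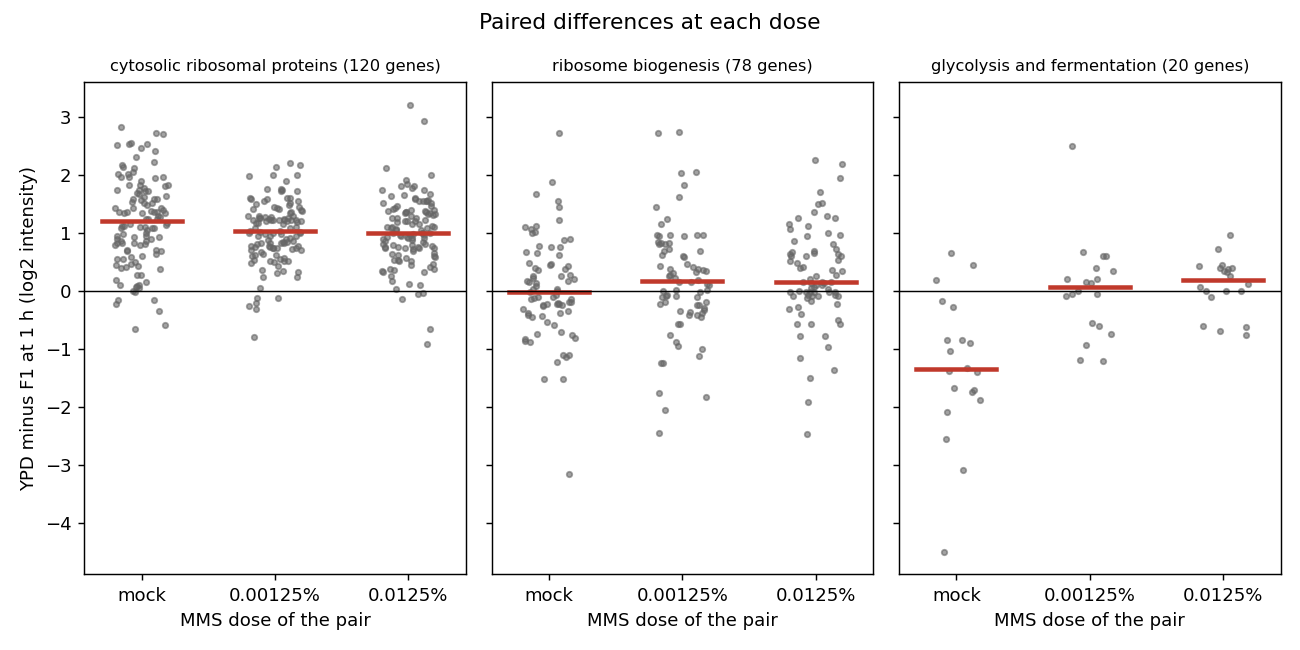
Paired differences, YPD minus F1 in log2 intensity, at each MMS dose for 120 cytosolic ribosomal protein genes, 78 ribosome biogenesis genes and 20 glycolysis and fermentation genes; each dot is 1 gene and each red bar the median. The ribosomal medians are 1.20, 1.03 and 1.00 across the doses, while the glycolysis median of -1.35 in mock has no counterpart at the MMS doses.

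Of all the lists, cytosolic ribosomal proteins had the largest share of genes higher in YPD. Of 120 ribosomal protein genes, 75 (62.5%) passed higher in YPD and 0 lower, against 3.84% of all genes, and 118 of the 120 differences were positive. The list median was 1.06, and it was 1.20, 1.03 and 1.00 in the mock, 0.00125% and 0.0125% pairs. Both subunits took part, with 36 of 51 small-subunit genes and 39 of 69 large-subunit and stalk genes passing.

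RPL22A was at 3.81, 3.09 and 3.08 in YPD and 1.27, 1.50 and 0.96 in F1, 4.25-fold higher in YPD (difference 2.09 ± 0.24, adjusted p = 0.00152). RPS18A was at 3.38, 3.10 and 3.03 in YPD and 1.17, 1.10 and 1.21 in F1, 4.03-fold higher in YPD (adjusted p = 0.00132). Neither gene overlapped between media, and both were above the limit on all 6 arrays. RPL37A (3.91-fold), RPS21A (3.71-fold), RPL40B and RPL9B (both 3.68-fold) followed, with adjusted p of 0.00347, 0.00475, 0.0033 and 0.00137.

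Most ribosomal proteins are made from a pair of nearly identical genes whose cDNA can bind either spot, so the split between copies is uncertain. Of 43 such pairs, both copies passed in 19, 1 copy in 17 and none in 7. The copies differed by a median of 0.27, and by most for RPL37, at 1.97 for RPL37A and 0.13 for RPL37B. Across the 43 pairs the Pearson correlation between the copies' differences was 0.310, with the array and membrane in common. The number of ribosomal genes that passed was 101, 35 and 62 without the mock, 0.00125% and 0.0125% pair in turn, 41 without the dose block, 42 and 43 from single spots and 107 after median centring, with 0 lower in each. Of the 120, only 12 lay outside the positions of high local background, and 6 of those 12 passed in a fit without such positions (median 0.67).

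Few genes of the ribosome biogenesis list passed. Of 78 ribosome biogenesis genes, 4 were higher in YPD (5.13%) and 1 lower, with a median of 0.14. The 4 were the GTPases NOG1 (at least 1.28-fold, difference 2.55, adjusted p = 0.00646) and LSG1 (1.28, adjusted p = 0.014), the RNA helicase DBP2 (1.55, adjusted p = 0.0277) and MAK16 (at least 1.02-fold, difference 1.77, adjusted p = 0.0456), and the one lower was IMP3, of the small-subunit processome (-1.32, adjusted p = 0.0207). LSG1 was the only one of these bright on all arrays, at 4.46, 3.17 and 2.79 in YPD and 2.59, 2.20 and 1.80 in F1. RRS1, a ribosome biogenesis regulator that the list of 78 does not hold, also passed higher in YPD (at least 5.39-fold, limma adjusted p = 0.000954). It lies in a corner of the membrane described below. RPA135 of RNA polymerase I (1.08, adjusted p = 0.028) and RPO31 of RNA polymerase III (1.40, adjusted p = 0.0295) were higher in YPD out of 22 polymerase genes.

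Other parts of translation were near the background. FRS1, of phenylalanyl-tRNA synthetase, passed (1.20, adjusted p = 0.0176) among 19 synthetases, and GCD7, of the guanine nucleotide exchange factor eIF2B, was lower in YPD (-0.94, adjusted p = 0.0286) among 37 translation factors. Of 60 mitochondrial ribosomal proteins, MRPL8 was higher (2.47, adjusted p = 0.00941, above the limit on 1 YPD array and 0 F1 arrays), and RSM7 (-1.19, adjusted p = 0.014), RSM10 (-1.07, adjusted p = 0.0313) and MRPL16 (-1.64, adjusted p = 0.0488) lower in YPD, with a median of 0.11. RSM10 sat in a region of the membrane with low differences, and its value was 0.10 once local medians were removed.

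Most genes of proteolysis that passed were lower in YPD. In the list of vacuolar proteases, 5 of 9 were lower in YPD and 1 higher, with a median of -1.25. The median level of this list was -0.94, 0.65 and 0.70 on the YPD arrays and 0.70, 0.83 and 1.17 on the F1 arrays, so the YPD mock array was low. PEP4, the protease that activates the others, was at -0.31, 1.81 and 2.24 in YPD and 2.84, 2.97 and 3.0 in F1 (difference -1.69, adjusted p = 0.0293), and PRB1, protease B, was at least 2.27-fold lower (difference -2.15, adjusted p = 0.0204). APE1 (-1.25, adjusted p = 0.013) and LAP3 (-1.41, adjusted p = 0.0462) are aminopeptidases. YPS1, at 2.40, 2.63 and 2.86 in YPD and 4.34, 4.85 and 4.81 in F1, was 4.10-fold lower in YPD (adjusted p = 0.00137), and it is a yapsin of the cell surface rather than of the vacuole. APE3, another aminopeptidase, was higher in YPD (1.68, adjusted p = 0.00937). Of 35 proteasome genes, SCL1 (at least 1.65-fold, adjusted p = 0.00373), BLM10 (-1.59, adjusted p = 0.00816), RPT6 (-1.71, adjusted p = 0.0144) and RPN6 (at least 1.50-fold, difference -1.53, adjusted p = 0.0226) were lower and RPT5 (2.52, adjusted p = 0.0088) was higher in YPD. RPT5 exceeded the limit on 1 YPD array and 0 F1 arrays, and it lies in a corner of the membrane described below.

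Of 10 histone genes, HTB1 (2.79-fold), HTB2 (2.26-fold) and HHT1 (2.12-fold) were lower in YPD, with adjusted p of 0.00627, 0.0146 and 0.0202 and a list median of -0.78. HTB1 and HTB2 encode nearly the same protein and their probes may share signal, and 1 of 10 passed without the 0.00125% pair. Of 28 cell wall genes, SED1 (-1.98, adjusted p = 0.028), CRH1 (-1.19, adjusted p = 0.0112), EXG1 (-0.96, adjusted p = 0.0257) and TIP1 (-2.01, adjusted p = 0.0366) were lower in YPD. SED1, a major wall protein, was at -0.25, 3.13 and 3.87 in YPD and 3.49, 4.47 and 4.72 in F1, again with a low YPD mock array. TIP1 reached 0.18 at most in YPD and was 0.14 higher there without background correction.

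In the stress lists, 7.41% and 6.90% of genes were lower in YPD, near the 4.46% of all genes. GLC3, the glycogen branching enzyme (at least 1.43-fold, difference -1.89, adjusted p = 0.013), and DDR48 (-1.18, adjusted p = 0.0136) were lower in YPD out of 27 genes of trehalose, glycogen and general stress. GTT1, a glutathione transferase (at least 1.34-fold, difference -2.70, adjusted p = 0.00627), and SOD1, superoxide dismutase (-1.04, adjusted p = 0.028), were lower out of 29 oxidative stress genes. The chaperonin HSP10 was higher in YPD (1.04, adjusted p = 0.0455) out of 27 chaperones, and the sterol gene ERG26 passed (1.37, adjusted p = 0.00646) only through its first spot, since the second gave -0.57. Of 19 ribonucleotide reductase and DNA damage genes, 0 passed at 1 h in limma, and their median was 0.16. At an unadjusted p under 0.05 the same fit counted 1485 of all 6094 genes, so list counts must be read against that share. It counted 1 of these 19 DNA damage genes, 3 of the 9 lysine genes, 3 of the 5 threonine genes and 0 of the 8 vitamin B6 genes. It also counted 4 of the 17 hexose transporters, 4 of 10 fatty acid synthesis genes and 3 of the 11 mating-type markers.

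Beyond the lists, the genes with the largest differences that were above background on all 6 arrays and higher in YPD included IRC19 (at least 1.80-fold, adjusted p = 0.00688), YOR333C (at least 2.52-fold, adjusted p = 0.00475), the elongation factor SPT5 (2.10, adjusted p = 0.00932), the transcription factor HAA1 for weak acid stress (3.79-fold, adjusted p = 0.00183), the arrestin ALY1 (1.89, adjusted p = 0.0144) and YNL303W (at least 1.25-fold, adjusted p = 0.0319). HAA1 was at 3.08, 2.37 and 2.03 in YPD and 1.10, 0.63 and -0.02 in F1, with a step between media at every dose. Lower in YPD were ALT1, the alanine transaminase (at least 2.59-fold, adjusted p = 0.00125), the carbonic anhydrase NCE103 (at least 2.24-fold, adjusted p = 0.00347), the kinase KKQ8 (4.73-fold, adjusted p = 0.00132) and YCR056W (-2.25, adjusted p = 0.00533). ALT1 was at -1.59, -0.54 and -0.60 in YPD and 1.64, 2.42 and 2.27 in F1. ELM1, a kinase, and MAL13, a maltose regulator, also passed (-2.90 and -2.77, adjusted p = 0.00263 and 0.00132), but both lay where local background was among the highest on the membrane and their spots disagreed on YPD, with 1 spot below background on some arrays and its partner above.

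Some genes were at or below background on all 3 arrays of 1 medium and above it on all 3 of the other. Of genes above background in YPD alone, 6 passed, led by PKR1, a factor for assembly of the vacuolar proton pump, at 4.09, 3.63 and 2.67 in YPD (at least 7.50-fold, adjusted p = 0.000107). RRS1, a ribosome biogenesis regulator (at least 5.39-fold, adjusted p = 0.000954), AIM33 (at least 3.05-fold, adjusted p = 0.00132) and SEC62 of the translocon (at least 1.75-fold, adjusted p = 0.00606) followed, and RPT5 did not exceed the limit enough for a bound. Of genes above background in F1 alone, 26 passed, among them AGP1, YJL086C (at least 1.95-fold, adjusted p = 0.00307), YNL194C (at least 1.83-fold, adjusted p = 0.00137) and TOS4 (at least 1.39-fold, adjusted p = 0.00329), while TDA7 (adjusted p = 0.00627) gave no bound. YJL086C differed by 0.05 without background correction.

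Several of these genes lie close together on the membrane. PKR1 and RRS1 share a grid square with TDA7, and in it 4 of 5 genes passed, 2 higher and 2 lower in YPD, where 3 of 1152 squares held 4 or more such genes. AIM33 and SEC62 lie in the next square, and RPT5 in column 22 of the same row. In this corner of the third field (rows 13 to 16, columns 22 to 24), 14 of 56 genes passed (25.0%, against 8.30% of all), 11 higher and 3 lower. For these values the medium and the membrane cannot be told apart. Over the whole membrane, 13.6% of the genes that passed and 10.7% of all genes sat where the local median difference was beyond 0.5 in either direction, and 52.4% against 19.0% had a local background above the 90th percentile on at least 1 array. After removing local medians 466 genes passed, of which 336 were among the 506, and without the positions of high background 307 of 4934.

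**Figure D4:**
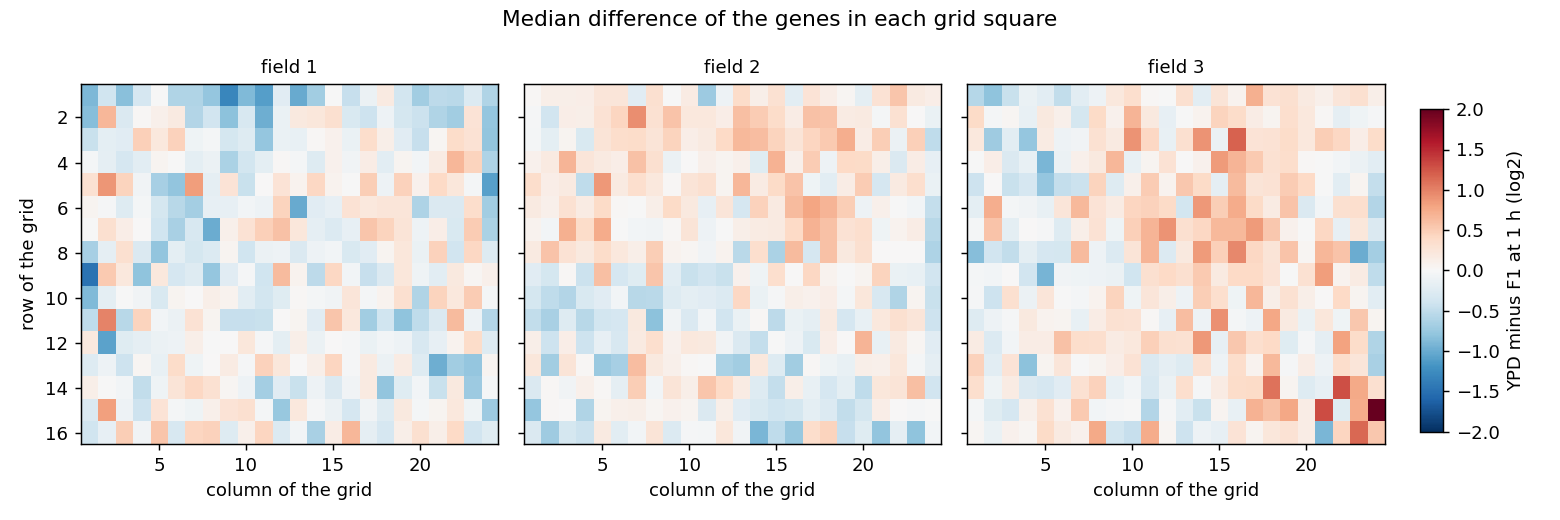
Median YPD minus F1 difference at 1 h, in log2 intensity, of the genes in each grid square of the 3 printed fields; rows and columns are grid positions, red is higher and blue lower in YPD. The lower right corner of the third field, rows 13 to 16 and columns 22 to 24, holds the square with the highest median (2.02, row 15, column 24) but also squares below 0.

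The arrays of 30 min, from other membranes, give the same contrast on samples that the 1 h test did not use; the labels do not say whether 1 culture gave both times. There 396 genes passed higher in YPD (6.50%) and 276 lower in YPD (4.53%). Of the 506 genes of 1 h, 384 (75.9%) had the same sign at 30 min, against 56.8% of all genes, and 153 passed in the same direction, which is 30.2% of the 1 h genes and 22.8% of the 30 min genes. A further 11 passed in opposite directions. Across genes the differences at the 2 times correlated with a Pearson r of 0.256, over arrays whose levels correlated weakly.

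At both times the ribosomal protein genes that passed were all higher in YPD, and more amino acid synthesis genes passed lower than higher. At 30 min, 88 of 120 ribosomal genes were higher in YPD and 0 lower (median 1.76), and 22 of 98 amino acid synthesis genes were lower and 2 higher (median -0.48). MET6 differed by -5.56 at 30 min (adjusted p = 0.0001), PYC1 by -4.03 (adjusted p = 0.00187), MET17 by -2.0 (adjusted p = 0.00694) and ARO9 by 1.86 (adjusted p = 0.0157). In the vacuolar protease list, 6 of 9 were lower in YPD (median -1.78). The list of gluconeogenesis, glyoxylate and retrograde genes had 5 lower in YPD at both times, with 0 higher at 1 h and 1 higher at 30 min. The proteasome list had 4 lower at both times, with 1 higher at 1 h and 0 at 30 min. Some other lists did not repeat their 1 h counts. Of 30 respiratory chain and ATP synthase genes, 0 were lower and 1 higher in YPD at 30 min (median -0.31). Of 10 histone genes, 0 passed in either direction (median -0.25). Of 22 permeases, 5 were lower and 0 higher at 1 h, against 4 lower and 2 higher at 30 min (median -0.24).

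The test of the time difference itself, on 12 arrays, passed for 251 genes (4.12%), of which 73 were among the 506. The count was 25, 0 (749 at an unadjusted p under 0.05) and 45 without the mock, 0.00125% and 0.0125% pair in turn, with 1 pair left out at both times, so no single gene of this test is firm. GAP1 differed by -1.08 at 30 min, where YPD was at 2.14, 2.09 and 2.18 and F1 at 3.17, 3.48 and 3.01, so the 1 h gap was wider by -3.74 (adjusted p = 0.00122). CTR3 was lower in YPD at 30 min (-1.20, not past the threshold) and differed in time by 4.62 (adjusted p = 0.000877). POS5, a mitochondrial NADH kinase whose spots lie beside the corner described above, differed in time by -4.80 (adjusted p = 0.000877).

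**Figure D5:**
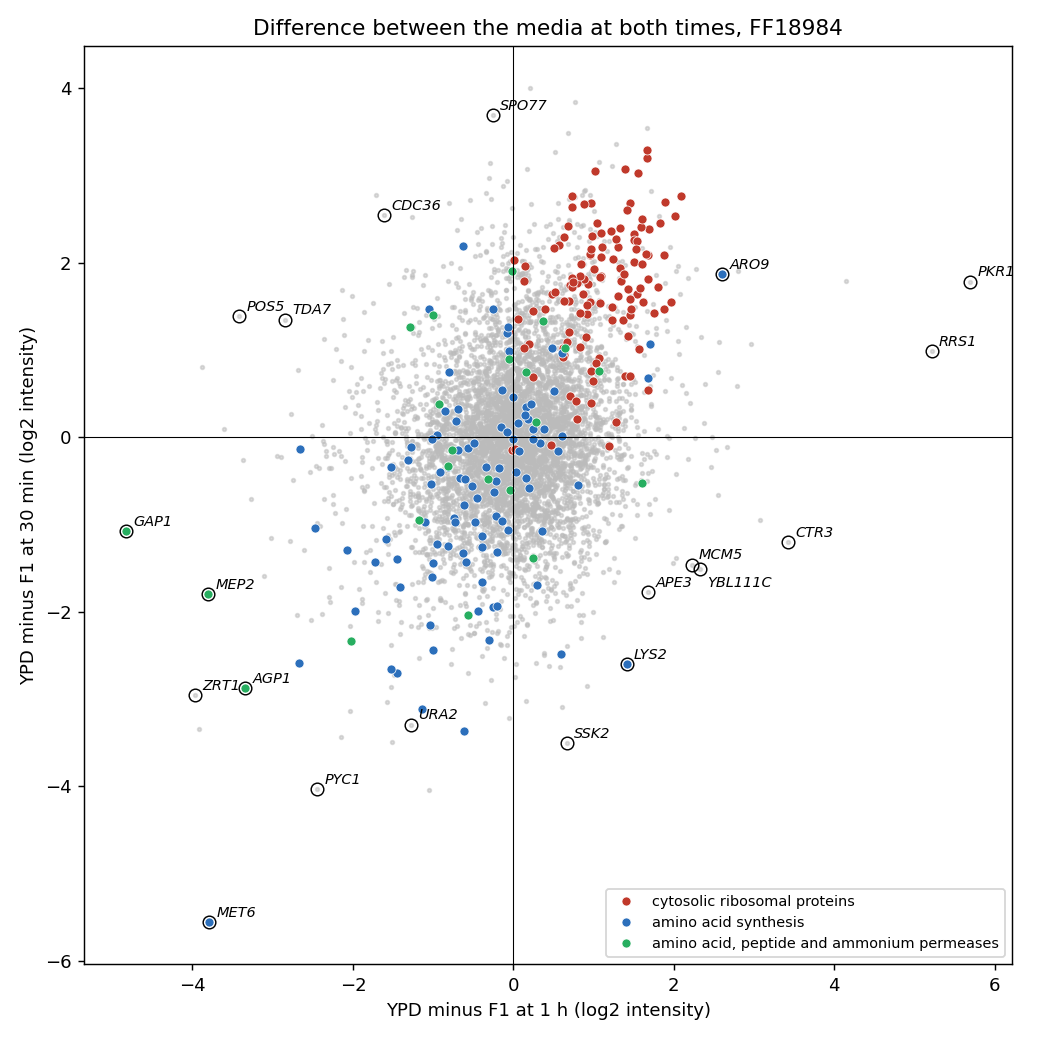
YPD minus F1 in log2 intensity at 1 h (horizontal) against 30 min (vertical) for 6094 genes, with ribosomal proteins in red, amino acid synthesis in blue and permeases in green; circles mark named genes. Ribosomal proteins gather in the upper right, MET6, PYC1, AGP1 and ZRT1 lie in the lower left, and CTR3, MCM5 and POS5 lie in quadrants where the times have opposite signs.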

How the data were processed

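The deposited files give a spot intensity, its local background and their difference for each array, per the file headers, with 2 spots at each of 6912 positions. They name 6094 open reading frames, of which 5567 took their symbol from the reference gene table. The imaging software is not given in the sources used here, and how the authors made the intensity values of the deposited series table is not stated. From the background-subtracted intensity, each array was divided by its median positive value (251.4 to 9203.7 at 1 h), values below 0 were set to 0, a pseudocount of 0.187 (the 10th percentile of positive values) was added, log2 values of the spots were averaged and the arrays of the series were quantile normalized. Since no gene was left out, genes under the pseudocount have understated folds.

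Differences were fitted in limma 3.58.1 (R 4.3.3; lmFit, eBayes with trend) on the 6 arrays with dose as a block, leaving 2 residual degrees of freedom and a prior of 8.07, with Benjamini-Hochberg adjustment over 6094 genes and a threshold of 0.05. The 30 min arrays were fitted alike, and the difference between times on 12 arrays with membrane set and dose within time. Python 3.11.15, numpy 2.4.6, pandas 2.3.3 and matplotlib 3.10.9 did the rest. Tested on simulated data for the 1 h comparison over 6094 genes, the fit recovered 20.9% of genes changed by 1 log2 unit, 95.5% of those changed by 2 and 100% of those changed by 3, with 7.10% of its calls false. For the difference between times it recovered 7.46%, 50.7% and 92.4%. The simulation drew independent normal noise around 1 mean per gene, with the gene's 1 h spread on every array. It held no effect of membrane, culture, dose, local background or detection floor, so its rates cannot be taken over to the deposited arrays. The number of arrays limits the precision. Spots of a pair correlated at 0.728 to 0.902 (Spearman) on the 1 h arrays.

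The groups of samples, the gene lists and the genes named were chosen with earlier results of these data known. The naming rule took, in each direction, as many as 10 passing genes of largest difference that had 1 sign in the 3 pairs and a signal above background on 6 arrays; up to 5 per direction at or below background on all arrays of 1 medium; from each list the 3 genes of lowest p, and any other that passed in the amino acid, nucleotide, vitamin and permease lists; and up to 5 per direction for the difference between times. Other members named to complete a count, or as examples that did not pass, were chosen after their values were seen. Lists are described by counts and medians with no set test, and 2 genes caught by a symbol pattern but not ribosomal were removed from the ribosomal lists. The alternatives covered the dose block, the normalization, the background, the pseudocount, filters, single spots, the series table, the samples fitted and each pair left out. A further 5, for place on the membrane, printing plate, local background, unnamed positions and the centred series table, were added after the data were seen.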

Additional observations from a re-analysis of the deposited data

Results flagged for a closer look

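By limma's test on 12 arrays, the difference between the media differed between 1 h and 30 min for the following named genes. All had an adjusted p under the threshold, and each value is the 1 h difference minus the 30 min difference in log2 intensity. With 1 pair left out at both times the test passed 25, 0 and 45 genes (mock, 0.00125% and 0.0125% pair in turn). No single gene below is therefore firm. Among nutrient genes, GAP1 had -3.74 (adjusted p = 0.00122), PRO3 -2.52 (adjusted p = 0.0325), BNA6 -2.97 (adjusted p = 0.0365), ARN2 -2.26 (adjusted p = 0.0353) and JEN1 -2.58 (adjusted p = 0.0433). CTR3 had 4.62 (adjusted p = 0.000877) and the pyrimidine gene URA2 2.01 (adjusted p = 0.0401), the last because its difference was -1.28 at 1 h and -3.30 at 30 min. LYS2, of lysine synthesis, had 4.01 (adjusted p = 0.00336): it was 1.41 at 1 h, which did not pass, and -2.60 at 30 min.

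Among genes of ribosomes and proteolysis, NOG1 had 3.21 (adjusted p = 0.0117), MRPL8 2.47 (adjusted p = 0.0148), APE3 3.46 (adjusted p = 0.00436), RPT5 2.67 (adjusted p = 0.021) and RPN6 -2.51 (adjusted p = 0.033). RPT5 lies in the corner of the membrane that holds PKR1. APE3 is one of the genes that passed in opposite directions, at 1.68 at 1 h and -1.78 at 30 min. The replication helicase subunit MCM5 had 3.68 (adjusted p = 0.00336), the kinase SSK2 of the osmotic stress pathway 4.18 (adjusted p = 0.00278), and YBL111C, in a subtelomeric repeat present in many copies, 3.83 (adjusted p = 0.00145).

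The corner of the membrane that holds PKR1 contributed 3.92 for PKR1 (adjusted p = 0.0052), 4.23 for RRS1 (adjusted p = 0.00732), 4.02 for SEC62 (adjusted p = 0.0196) and -4.19 for TDA7 (adjusted p = 0.00321), and POS5 beside it had -4.80 (adjusted p = 0.000877). Genes at or below background in YPD gave -4.68 for YJL086C (adjusted p = 0.0188), -3.69 for YNL194C (adjusted p = 0.00436), -2.56 for TOS4 (adjusted p = 0.0455) and -4.15 for CDC36 (adjusted p = 0.00336). CDC36 exceeded the limit of the unnamed positions on 1 F1 array and 0 YPD arrays of 1 h. TIP1 had -3.63 (adjusted p = 0.0107), ELM1 -2.67 (adjusted p = 0.0455), MAL13 -3.04 (adjusted p = 0.0158) and KKQ8 -2.13 (adjusted p = 0.0491). SPO77, a gene of sporulation, had -3.94 (adjusted p = 0.00336), with -0.25 at 1 h and 3.69 at 30 min. The arrays of 1 h and 30 min lie on different membranes, so time and membrane cannot be told apart, and for genes under the limit of the unnamed positions in a medium these values are fitted differences.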

How the results depend on the processing

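Of 128 named genes that passed at 1 h, 121 kept their direction under every alternative that tested them and 7 did not; of 131 named genes in all, 67 were tested without positions of high local background, 86 with a signal above 0 on all arrays and 116 above the unnamed positions. The call was lost by 57 of the 131 without the dose block, 77 and 73 from single spots, 47 without the 0.00125% pair, 45 in the centred series table and 40 from all 12 arrays. The count of genes that passed (506, with 234 higher and 272 lower in YPD) was 193 without the dose block (90 higher, 103 lower), 836 with no background correction (446 higher), 140 from the first spot (75 and 65), 180 from the second (86 and 94), 328 from all 12 FF18984 arrays (148 and 180), and 307 without positions of high local background (137 and 170). Of genes above background on all arrays, 169 were lower. The series table as deposited gave 2544, 2366 of them lower, with a median of all genes at -0.70; centred, it gave 325 higher and 165 lower. Leaving out each pair gave 216 (without 0.00125%) to 777 (without mock), 100 to 376 higher and 116 to 401 lower. The difference between times passed for 251 genes, but for 885 with no background correction, 447 in the series table, 407 in it centred, 123 above background on all arrays, 99 and 70 from single spots, 86 at the lower pseudocount of 0.0469, and 0 (749 at an unadjusted p under 0.05) to 45 with a pair left out. Signs turned with no background correction for MET3 (-0.056), ATP17 (0.21), YJL086C (0.053), SSK2 (-0.057; -0.26 in the series table), CDC36 (0.40) and TIP1 (0.14), in the second spot for ERG26 (-0.57), without local medians for RSM10 (0.10), and for SPO77 after median centring (0.21) and in the centred series table (0.34). The causes were not tested. No paired analysis by replicate number was possible because the labels give none; pairs are by dose. Signal over background is a further limit: 27.8% to 43.4% of genes per array exceeded the unnamed positions.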
